A study of Rattus norvegicus with 16 samples.

Results

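The genes described here carry out hepatic glycolysis, gluconeogenesis and glycogen turnover. They comprise 32 named rat genes, chosen for their function and found on the array by RefSeq accession or, failing that, by gene symbol. The array held 39 probes for them, and 31 of the 32 were measured among the 13146 transcripts that passed the filter on dim spots. The exception was Pfkfb3, an inducible enzyme that makes fructose 2,6-bisphosphate, whose probes were well above background on at most 1 of 16 arrays. The roles are glycolysis (12 genes), gluconeogenesis with glucose export (6), glycogen (8), fructose and sorbitol use (2), the pyruvate dehydrogenase step (3) and insulin signalling (1).

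Livers of male Sprague-Dawley pups were taken at 21 days of age, and none of the pups had been cross-fostered. Their dams were dosed through gestation and lactation with corn oil alone (group C) or with chemicals given in that oil. Groups 0.5M and M received polychlorinated biphenyls, organochlorine pesticides and methylmercury together, at 0.5 and 1.0 mg/kg/day. Group AhR received agonists of the aryl hydrocarbon receptor (non-ortho polychlorinated biphenyls, dioxins and furans) at 1.8 ng/kg/day in dioxin equivalents. Pups were therefore exposed through the dam and not dosed directly. Each group had 8 pups, whose RNA was pooled in random pairs onto 4 arrays, so a value stands for 2 livers. The labels do not say which pups were littermates, and littermates on different arrays of a group would make the p-values too small. Cy5 marked the liver RNA and Cy3 a common reference, and all levels below are log2 ratios of Cy5 to Cy3. Arrays are named by group and replicate. Replicates 1 and 2 of every group were on slide 1, and replicates 3 and 4 were on slide 2.

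The liver is the organ that both stores and releases glucose. After a meal, glucose is phosphorylated and is either laid down as glycogen or broken down to pyruvate under insulin. Between meals, glucagon acting through cyclic AMP favours release of glucose from glycogen and its synthesis from lactate, glycerol and amino acids, and insulin opposes this. Pck1 and G6pc1 are textbook targets of both hormones. Rat pups at this age are passing from milk, rich in fat, to solid food, rich in carbohydrate, and the hepatic enzymes of glucose use are known to come up at weaning. Dioxin-like chemicals are known to lower gluconeogenic enzymes in adult rat liver.

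A few properties of the arrays bear on these genes. All 8 hepatocyte markers were measured, with array medians between 0.02 and 1.10. Between 7082 and 15686 of 30367 probes were well above background in Cy5, and fewer on slide 1 (7082 to 13824) than on slide 2 (13006 to 15686). The reference went against its label, which gives it as RNA of 14 rat cell lines: transcripts of adult male liver were abundant in Cy3. The Cy3 signal of Cyp2c11, an adult male liver enzyme, was 30682 to 56690 intensity units, and that of Fbp1 was 58924 to 108042. The correlation of the channels across probes was 0.868 to 0.977. A ratio near 0 therefore says that a gene was about as abundant in pup liver as in this reference, which was common to all groups. Differences between groups were not recomputed without the Cy3 channel. Arrays M 2 and 0.5M 4 also held transcripts of skeletal muscle. The median of the 9 measured muscle markers was 3.13 on M 2 and 3.54 on 0.5M 4, against -2.32 to -0.83 on the other 14 arrays. Their values are kept in all tests. Without them, the difference from C moved by more than 0.1 for Pck1 and G6pc1 in M and for Pck1, G6pc1, Gyg1, Pdha1 and Irs2 in 0.5M, and both values are given for these. The sign turned for Tpi1, Pck1 and Slc2a2 in M and for Gbe1 in 0.5M. Transcripts of fat or pancreas were high on C 2 (Fabp4 1.54), M 1 (Ctrb1 3.05) and AhR 2 (Ctrb1 1.18). With these arrays also left out, differences in M included 0.24 for G6pc1, 0.48 for Pck2 and -0.26 for Gbe1. Those of Ldha and Pdk2 were -0.50 and -0.46. With all arrays these 5 were -0.43, 0.19, 0.03, -0.25 and -0.14. The response to exposure was checked with Cyp1a1 and Cyp2b2. Cyp1a1, the standard target of the aryl hydrocarbon receptor, rose by 2.46 ± 0.18 (SE) in AhR, 3.74 ± 0.18 in 0.5M and 4.58 ± 0.18 in M on the log2 scale. The rise was thus larger in both mixture groups than in AhR, the group described above as given agonists of that receptor. Cyp2b2, induced through the constitutive androstane receptor, rose by 1.87 ± 0.22 in 0.5M and 3.16 ± 0.22 in M (limma, adjusted p at most 0.00181 in each of these 5 cases). Its difference in AhR was 0.26 ± 0.22 (limma, adjusted p = 1.00).

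The first question was which glucose genes differed between exposed and control pups. None of the 31 did by limma at an adjusted p under 0.05, in M, 0.5M or AhR. In whole liver, fewer cells of a type and less RNA per cell cannot be told apart. Over all transcripts, 0.319% passed in M against C, 0.0152% in 0.5M against C and 0.00761% in AhR against C, so a list of this length would hold few calls or none at the background share. At an unadjusted p under 0.05, 1 gene was higher and 3 were lower in M, against 4.53% and 5.61% of all transcripts. In 0.5M, 1 was higher and none was lower, against 2.60% and 3.92%. In AhR there was none in either direction, against 2% and 1.77%. Groups separated without overlap in M for 1 gene in each direction, against 2.11% (higher) and 2.07% (lower) of all transcripts. In 0.5M (1.37% higher and 1.66% lower over all transcripts) and in AhR (0.981% and 1.02%) no glucose gene was separated from C. The test across all 4 groups also passed no glucose gene, with adjusted p from 0.354 to 0.983, where 0.175% of all transcripts passed. The median difference from C over the 31 genes was -0.06 in M, -0.03 in 0.5M and 0.04 in AhR, and over all transcripts it was between -0.0033 and 0.0003. The SD of the 31-gene median between single C arrays was 0.05, and the shifts in 0.5M and AhR were smaller. A shift compares groups of 4 arrays, so this SD is a wide yardstick for it. The shift in M turned to 0.03 on slide 1 alone and was -0.25 with each array centred on its median in place of loess. The medians over all transcripts above are from loess, so the -0.25 has no background beside it. With 1 array left out in turn the shift was -0.11 to -0.02 in M, -0.07 to -0.01 in 0.5M and -0.01 to 0.06 in AhR, so none exceeded that SD in every case. The shifts were not tested.

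**Figure D1:**
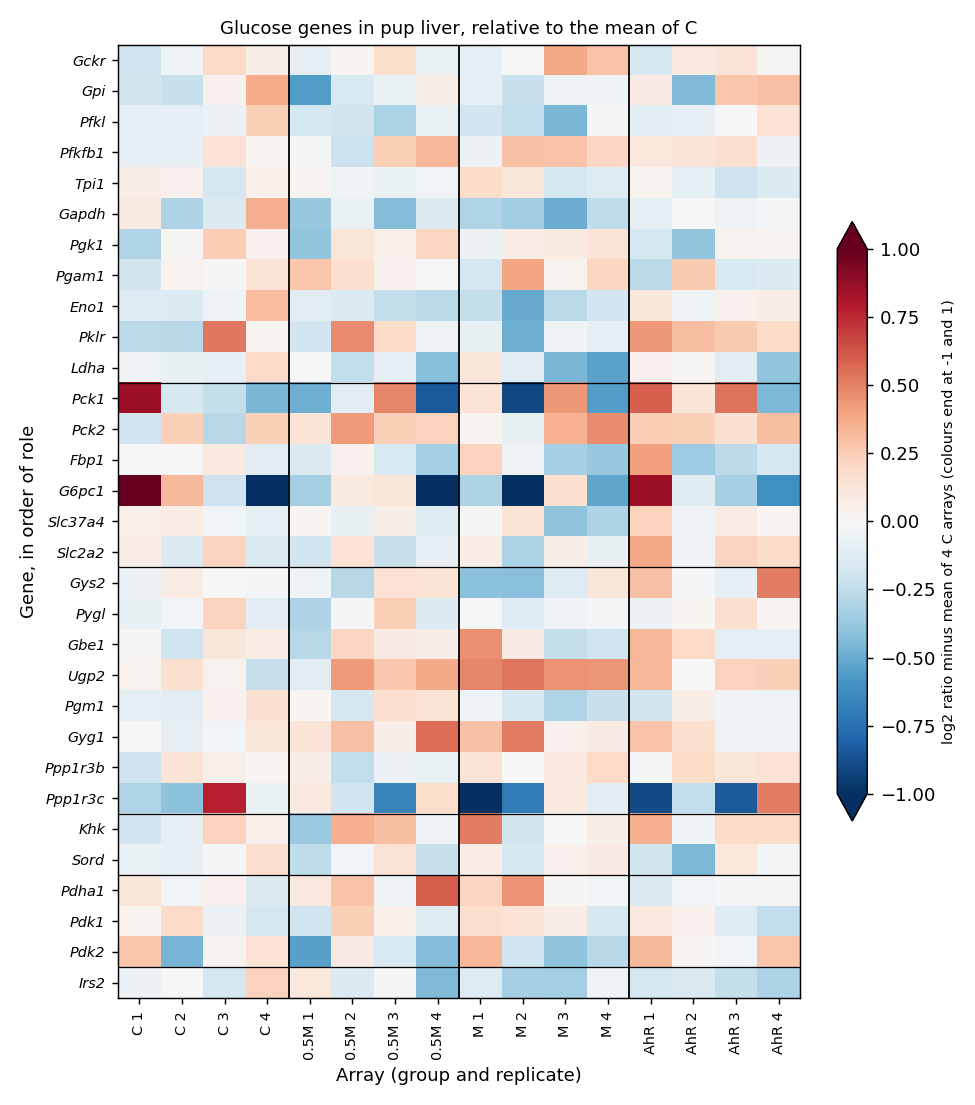
Level of each of the 31 measured glucose genes (rows, in order of role, with lines between roles) on each of 16 arrays (columns), as the log2 ratio minus the mean of the 4 C arrays; red is higher, blue lower, and colours end at -1 and 1. Pck1, G6pc1 and Ppp1r3c vary most from array to array within every group, and the row of Ugp2 is red on all 4 M arrays.

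A missed threshold does not show that a gene was equal in the groups, so the 95% confidence intervals of the differences were examined. In M, the interval lay wholly within 1.5-fold of C in either direction for 26 of 31 genes, and in 0.5M and AhR for 27 of 31. The median half-width was 0.26 on the log2 scale. Only G6pc1 and Ppp1r3c in M, and G6pc1 in 0.5M, had intervals that reached beyond 2-fold. In data simulated with the spread of these arrays, 97% of transcripts changed by 1.0 on the log2 scale in M were called, and 59% of those changed by 0.5. The simulation changed 100 transcripts at each size and gave 165 calls, against 42 measured in M against C. The adjusted threshold was thus easier to reach there. The glucose genes also varied more within groups than all transcripts (median SD 0.18 against 0.15). These rates therefore do not give the power for the glucose genes.

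**Figure D2:**
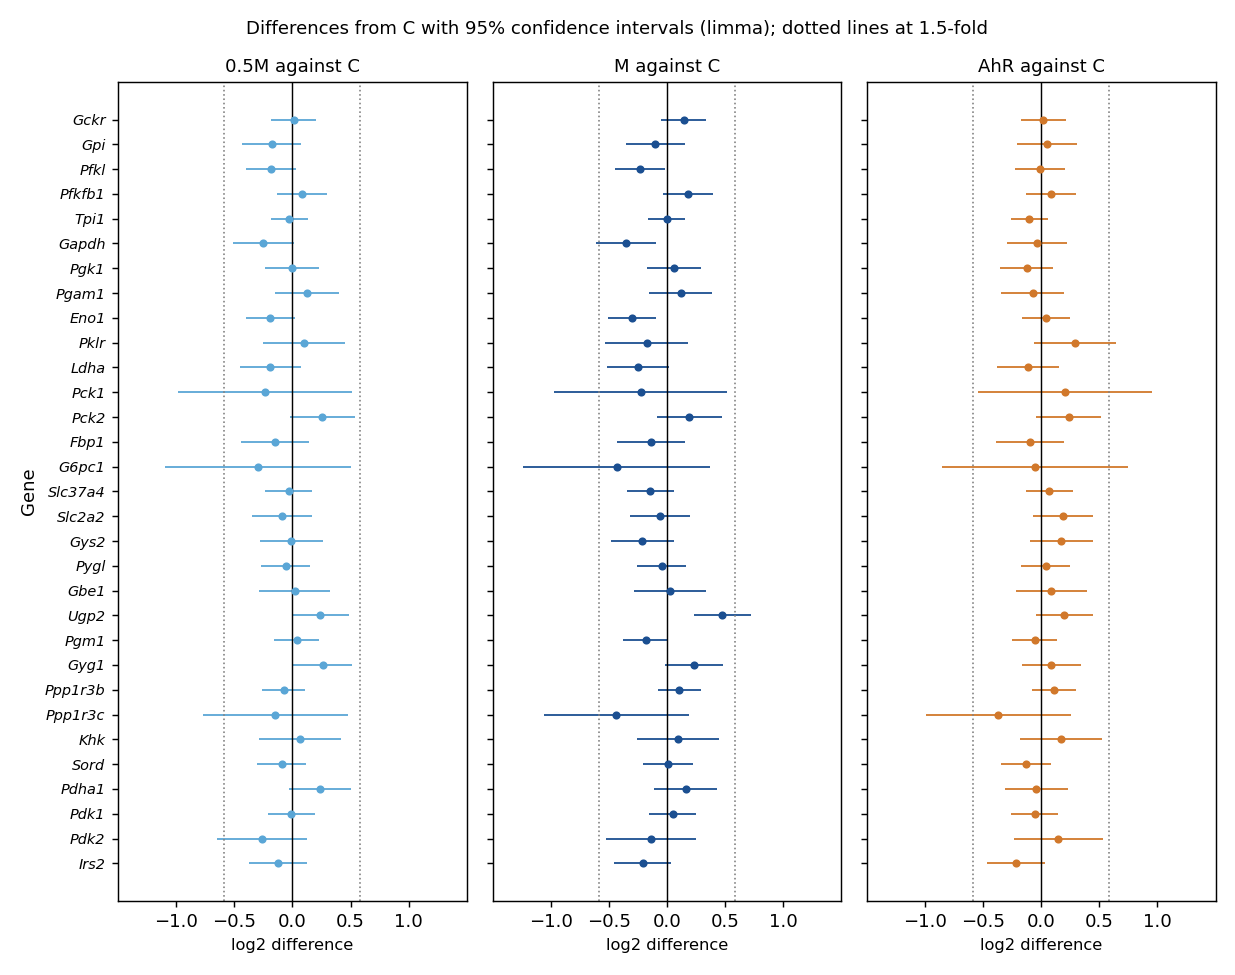
Difference from C on the log2 scale (horizontal axis) for each of 31 glucose genes (vertical axis) in 0.5M, M and AhR, with 95% confidence intervals from limma; dotted lines mark 1.5-fold. Most intervals lie between the dotted lines, and the intervals of Pck1, G6pc1 and Ppp1r3c are the widest.

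Among the 11 measured glycolysis genes, 5 differences were above 0 and 6 below in M, with a median of -0.10. Over all transcripts 50.6% were below 0. The lower ones included 3 enzymes at an unadjusted p under 0.05, against 5.61% of all transcripts. Eno1 (NM_001109908), the enolase of liver and most tissues, was -0.30, -0.31, -0.21 and 0.14 on the C arrays and -0.41, -0.67, -0.44 and -0.36 on the M arrays. All 4 M arrays lay below all 4 C arrays, and 1 of 31 genes was separated in this direction against 2.07% of all transcripts. The difference was -0.30 ± 0.10 (SE; limma, adjusted p = 0.260), -0.24 on slide 1 and -0.36 on slide 2. Eno1 was lowest on M 2, one of the arrays with muscle transcripts, and without M 2 and 0.5M 4 the difference was -0.24.

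Gapdh (NM_017008), glyceraldehyde 3-phosphate dehydrogenase, was 0.38, -0.01, 0.15 and 0.65 in C and -0.01, -0.06, -0.20 and 0.04 in M. The groups overlapped, the C arrays were widely spread (SD 0.29, n = 4) and the M arrays were close together (SD 0.10, n = 4). The difference was -0.35 ± 0.12 (limma, adjusted p = 0.303), and the other probes of the gene gave -0.54 and -0.41. In 0.5M, with -0.08, 0.23, -0.14 and 0.16, it was -0.25 ± 0.12 (limma, adjusted p = 0.748). Gapdh is often used to normalise expression between samples, and in AhR its difference was -0.04.

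Pfkl (NM_013190), the liver subunit of phosphofructokinase, which commits glucose to glycolysis, was 0.16, 0.16, 0.19 and 0.49 in C and 0.06, 0.01, -0.21 and 0.23 in M. The array C 4 stood above the other C arrays for Pfkl, Gapdh and Eno1 alike. Without it the differences in M were -0.16 for Pfkl, -0.23 for Gapdh and -0.20 for Eno1. The difference of Pfkl was -0.23 ± 0.10 (limma, adjusted p = 0.459), and its second probe gave -0.32. Ldha, the lactate dehydrogenase subunit that turns pyruvate into lactate, was -0.25 in M, with 0.06 on slide 1 and -0.55 on slide 2, so the slides differed in sign.

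Pklr (NM_012624), the liver pyruvate kinase that insulin and dietary carbohydrate are known to induce, was -1.20, -1.21, -0.40 and -0.91 in C and -0.50, -0.63, -0.67 and -0.75 in AhR. Its difference of 0.29 ± 0.17 in AhR came from slide 1, where it was 0.64, and was -0.05 on slide 2 (limma, adjusted p = 1.00 over both). The remaining glycolysis genes differed from C by less. Gckr, a nuclear protein that restrains glucose phosphorylation, was 0.14 in M, 0.01 in 0.5M and 0.02 in AhR. Pfkfb1, the hepatic enzyme that makes and breaks down fructose 2,6-bisphosphate, was 0.18, 0.08 and 0.08 in the same order. The isomerases Gpi and Tpi1, phosphoglycerate kinase (Pgk1) and phosphoglycerate mutase (Pgam1) lay between -0.18 and 0.12 in all 3 exposed groups. Tpi1 had the smallest spread of all 31 genes, with a residual SD of 0.08. Gpi was the only member with a slide effect by limma, 0.34 higher on slide 2 (adjusted p = 0.0283), and slide was a term of the model.

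Gluconeogenesis and glucose export were represented by 6 genes, and 5 of 6 differences from C were below 0 in M and in 0.5M, against 2 of 6 in AhR. Over all transcripts 50.6%, 51.2% and 49.9% of differences were below 0 in M, 0.5M and AhR. Without the muscle arrays the counts were 3 of 6 in M and 5 of 6 in 0.5M. The 3 comparisons share the C arrays, and none of the genes had an unadjusted p under 0.05. Pck1 (NM_198780), the cytosolic phosphoenolpyruvate carboxykinase of gluconeogenesis, was -0.68, -1.70, -1.78 and -1.99 in C. It was -2.03, -1.64, -1.05 and -2.38 in 0.5M, -1.40, -2.45, -1.11 and -2.09 in M, and -0.94, -1.41, -0.99 and -1.99 in AhR. Every group held high and low arrays, and all groups overlapped. The differences were -0.23 ± 0.35 in M, -0.24 ± 0.35 in 0.5M and 0.21 ± 0.35 in AhR (limma, adjusted p from 0.878 to 1.00). Without M 2 and 0.5M 4, which had the lowest Pck1 of all arrays, the difference was 0.03 in M and -0.07 in 0.5M.

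G6pc1 (NM_013098), the catalytic subunit of glucose 6-phosphatase, which frees glucose for export, was -0.03, -0.72, -1.25 and -2.18 in C. It was -1.37, -0.96, -0.92 and -2.12 in 0.5M, -1.35, -2.11, -0.88 and -1.56 in M, and -0.18, -1.16, -1.38 and -1.65 in AhR. The C arrays alone spanned the range from the highest to the lowest of the 16 values. The differences were -0.43 ± 0.38 in M, -0.30 ± 0.38 in 0.5M and -0.05 ± 0.38 in AhR (limma, adjusted p from 0.758 to 1.00). A second probe of the gene gave -0.27, -0.26 and -0.04 in the same order. For the first probe the sign in M turned between slides, from -1.36 on slide 1 to 0.49 on slide 2. Without the muscle arrays the difference was -0.12 in M and -0.14 in 0.5M, and with 1 array left out in turn it was -0.75 to -0.11 in M. With the arrays holding fat or pancreas transcripts also left out, the difference was 0.24 in M and -0.24 in 0.5M.

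These genes had the largest spread among arrays of one group. The residual SD was 0.63 for G6pc1, 0.59 for Pck1, 0.49 for Ppp1r3c and 0.29 for Pdk2, against a median of 0.18 over the 31 genes and 0.15 over all transcripts. G6pc1 was at the 99.3 percentile of all transcripts by this measure, Pck1 at 99.1 and Ppp1r3c at 98.4.

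**Figure D3:**
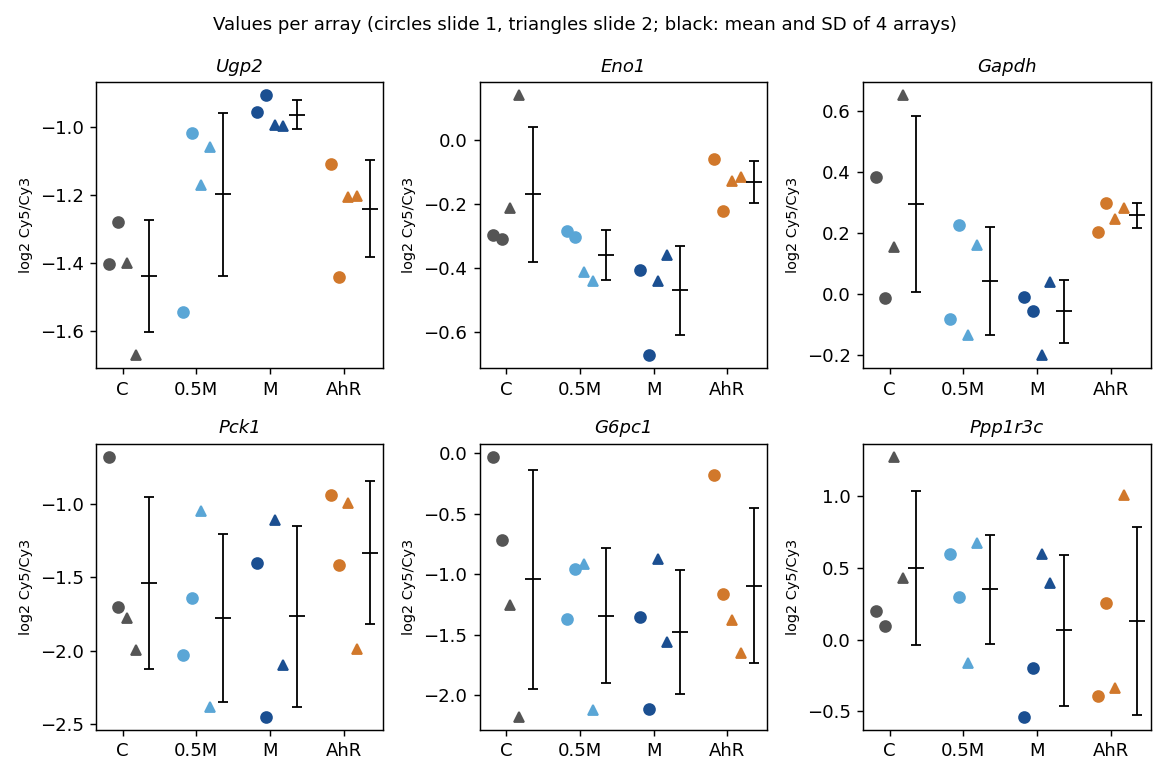
Log2 ratio of Cy5 to Cy3 (vertical axis) on each array for 6 glucose genes, by group (circles slide 1, triangles slide 2; black marks show the mean and SD of 4 arrays). For Ugp2 the M arrays lie above all C arrays and for Eno1 below all of them, whereas Pck1, G6pc1 and Ppp1r3c spread widely in every group.

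The promoters of Pck1 and G6pc1 are shown because their transcripts varied most and varied together, and because cyclic AMP acts on both. Each window runs from 250 bases before to 50 after the RefSeq start in build GRCr8. Capitals mark TTACGT or its reverse complement ACGTAA, with which the cyclic AMP response element known from the Pck1 promoter begins. Pck1 is at chr3:182348322-182348621 on the plus strand and G6pc1 at chr10:86807409-86807708 on the plus strand.
Pck1: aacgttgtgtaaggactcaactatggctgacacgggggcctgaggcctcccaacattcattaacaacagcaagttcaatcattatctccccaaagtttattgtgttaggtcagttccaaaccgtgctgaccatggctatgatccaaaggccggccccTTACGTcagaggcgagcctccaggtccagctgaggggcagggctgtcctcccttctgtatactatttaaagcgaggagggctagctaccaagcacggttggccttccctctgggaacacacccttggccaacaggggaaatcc
G6pc1: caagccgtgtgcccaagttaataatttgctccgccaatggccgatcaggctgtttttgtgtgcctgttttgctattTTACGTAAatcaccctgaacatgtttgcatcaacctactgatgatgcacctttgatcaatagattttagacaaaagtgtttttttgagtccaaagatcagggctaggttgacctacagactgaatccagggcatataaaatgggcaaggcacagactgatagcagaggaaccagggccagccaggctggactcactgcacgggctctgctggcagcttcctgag
In Pck1 the match began 93 bases before the start and read on as TTACGTCA. In G6pc1 it began 174 bases before the start, in the palindrome TTACGTAA, so that both strands matched and the matches overlapped. Either strand matched in 3.21% of 33469 RefSeq promoter windows and in 4 of the 29 members with a window (13.8%), the others being Pgam1 and Slc37a4. The motif was chosen after the sequences had been read, and a match describes letters only. No window was used for Pgk1, Ppp1r3b and Irs2.

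Across the 16 arrays, 6 relations between glucose genes were computed, with Benjamini-Hochberg adjustment over the 6, and 4 of them are given. Pck1 and G6pc1 were high and low together, with Pearson's r = 0.823 (permutation p = 9e-05, adjusted p = 0.00039, n = 16) and Spearman's rho = 0.771 (permutation p = 0.00074, adjusted p = 0.00222). Pearson's r was 0.895 on slide 1 (exact permutation p = 0.00444, n = 8) and 0.809 on slide 2 (exact permutation p = 0.0207, n = 8). These p are unadjusted. Adjusted over the 6 relations, slide 2 alone did not pass (permutation, adjusted p = 0.124). The correlation was 0.724 without M 2 and C 1, the arrays farthest from the median of Pck1, and 0.741 without the muscle arrays M 2 and 0.5M 4. C 1 and AhR 1 were the highest for both genes. M 2, 0.5M 4 and C 4 were the lowest for G6pc1, and M 2 and 0.5M 4 for Pck1.

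The relation of Pck1 to G6pc1 was 0.858 from the Cy5 signal alone after quantile normalization, without the reference channel. C 1 and AhR 1, the highest for both genes, had 10056 and 8828 probes well above background in Cy5. Array 0.5M 2 had 9206, with Pck1 at -1.64 and G6pc1 at -0.96. M 1 had the fewest, 7082, with Pck1 at -1.40 and G6pc1 at -1.35, near the middle of both ranges. The part of brightness in this relation was not tested. Within slide 1 the arrays still ranged from 7082 to 13824 such probes, so the within-slide values do not remove it. The feeding state of the pups at collection is not given in the sources used here.

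**Figure D4:**
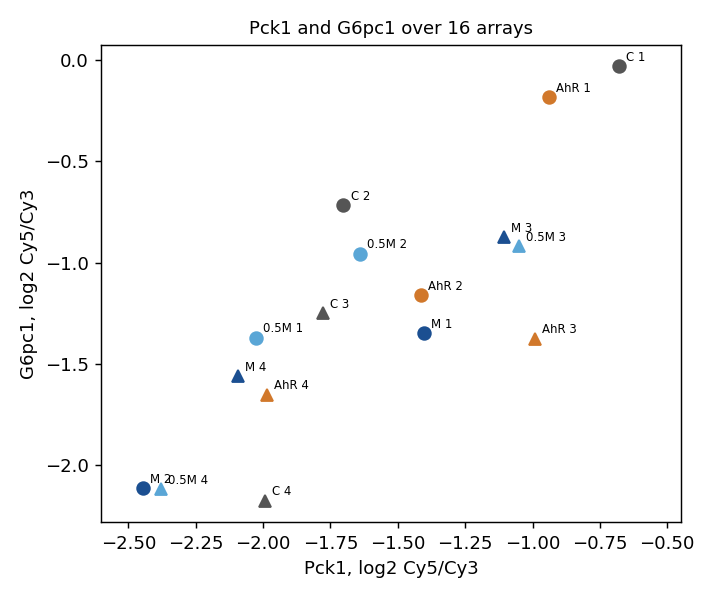
Log2 ratio of Pck1 (horizontal axis) against G6pc1 (vertical axis) on 16 arrays, each labelled by group and replicate (circles slide 1, triangles slide 2). G6pc1 is high where Pck1 is high (r = 0.823), with arrays of every group along the trend.

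The other 3 relations given did not pass. Pck1 had r = 0.081 with Irs2 (permutation p = 0.766). Gys2 had r = 0.199 with Ppp1r3b (permutation p = 0.457). Irs2 had r = 0.365 with Igfbp1, a secreted protein whose transcript insulin lowers and fasting raises (permutation p = 0.165). Their adjusted p were 0.330 to 0.766.

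The other gluconeogenic genes had a narrower spread. Pck2 (NM_001108377), the mitochondrial carboxykinase, was -0.58, -0.15, -0.67 and -0.15 in C, -0.25, 0.04, -0.15 and -0.16 in 0.5M, and -0.14, -0.15, -0.24 and -0.09 in AhR. The C arrays fell into a low and a high pair, and each exposed group overlapped the high pair. The difference was 0.26 ± 0.13 in 0.5M (limma, adjusted p = 0.748), 0.23 ± 0.13 in AhR (limma, adjusted p = 1.00) and 0.19 ± 0.13 in M (limma, adjusted p = 0.675). Fbp1, the fructose bisphosphatase specific to gluconeogenesis, was -0.14 in M, -0.15 in 0.5M and -0.09 in AhR. Slc37a4, which carries glucose 6-phosphate to G6pc1 in the endoplasmic reticulum, was -0.14, -0.03 and 0.07 in the same order. Slc2a2, the hepatocyte glucose carrier GLUT2, was -0.06, -0.09 and 0.19, and 0.03 in M without the muscle arrays.

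All 8 glycogen genes were measured, and the one nearest to a call in any comparison with C was Ugp2 (NM_001024743), which makes UDP-glucose, the donor for glycogen. Ugp2 was -1.40, -1.28, -1.40 and -1.67 on the C arrays and -0.95, -0.91, -0.99 and -0.997 on the M arrays. All 4 M arrays lay above all 4 C arrays, and the M arrays were close together (SD 0.04, n = 4, against 0.17 in C). It was -1.55, -1.02, -1.17 and -1.06 in 0.5M and -1.11, -1.44, -1.21 and -1.20 in AhR, where 3 of 4 arrays in each group lay above all C arrays. The difference from C was 0.48 ± 0.12 in M (1.39-fold; limma, adjusted p = 0.116, unadjusted p = 0.000858). It was 0.41 on slide 1 and 0.54 on slide 2, and 0.46 without the muscle arrays. With median centring in place of loess it was 0.19 (limma, adjusted p = 0.997), the lowest of the 29 settings. In 0.5M it was 0.24 ± 0.12 (limma, adjusted p = 0.748) and in AhR 0.20 ± 0.12 (limma, adjusted p = 1.00). Ugp2 was the only 1 of 31 genes whose M arrays all exceeded C, against 2.11% of all transcripts. With array 0.5M 1 left out, which enters this difference only through the shared spread and the slide term, the difference was 0.48 and the adjusted p 0.0364, the only setting of 29 in which a glucose gene passed.

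The promoter of Ugp2 is shown because this gene came nearest to a call and because the aryl hydrocarbon receptor is known to bind the core GCGTG. Capitals mark that core, searched on both strands as GCGTG and CACGC, in the window chr14:99697953-99698252 on the minus strand of GRCr8.
Ugp2: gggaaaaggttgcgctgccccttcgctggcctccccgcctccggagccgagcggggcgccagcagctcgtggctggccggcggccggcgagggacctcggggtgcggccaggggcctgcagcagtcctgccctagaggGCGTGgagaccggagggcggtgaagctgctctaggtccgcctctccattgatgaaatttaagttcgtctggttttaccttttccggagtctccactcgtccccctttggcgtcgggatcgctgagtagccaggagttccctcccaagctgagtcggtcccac
The window held 1 match, 112 bases before the start. The core is common: 29.7% of 33469 windows held it, and so did 15 of the 29 members with a window (51.7%), among them Eno1, Gapdh and Pfkl, whose differences in M were below 0. The match was not set against any measure of receptor binding.

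Gyg1 (NM_031043), glycogenin, the protein on which a glycogen particle is started, was -0.28, -0.36, -0.30 and -0.15 in C and -0.14, 0.02, -0.20 and 0.29 in 0.5M. In 0.5M, 3 of 4 arrays lay above all of C, and the difference was 0.26 ± 0.12 (limma, adjusted p = 0.748). The probe was well above background on 8 of 16 arrays. Its highest values were on the muscle arrays 0.5M 4 and M 2, at 0.29 and 0.24, and without them the difference in 0.5M was 0.14.

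Ppp1r3c (NM_001012072), a subunit that brings protein phosphatase 1 to glycogen, was 0.20, 0.09, 1.28 and 0.43 in C and -0.54, -0.20, 0.60 and 0.40 in M. It was 0.60, 0.30, -0.16 and 0.67 in 0.5M and -0.40, 0.26, -0.34 and 1.01 in AhR. All groups overlapped, and C 3 was the highest of the 16 arrays. The differences were -0.43 ± 0.29 in M, -0.15 ± 0.29 in 0.5M and -0.37 ± 0.29 in AhR (limma, adjusted p from 0.671 to 1.00). Its relative Ppp1r3b, the main hepatic subunit of this kind, was dim (well above background on 9 arrays) and differed by 0.11 in M, -0.08 in 0.5M and 0.11 in AhR.

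The enzymes that build and break the glycogen polymer differed little from C. Gys2, the liver glycogen synthase, was -0.21 in M, -0.01 in 0.5M and 0.17 in AhR. Pygl, the liver phosphorylase, was -0.04, -0.06 and 0.04 in the same order, and Gbe1, the branching enzyme, was 0.03, 0.02 and 0.09. Pgm1, which interconverts glucose 1-phosphate and glucose 6-phosphate, was -0.18, 0.04 and -0.05. None of these 12 differences had an unadjusted p under 0.05.

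In the smaller roles, differences from C of the genes given here were at most 0.26 in size. Khk, the ketohexokinase that starts hepatic fructose use, was 0.09 in M, 0.06 in 0.5M and 0.17 in AhR. Sord, sorbitol dehydrogenase, was 0.01, -0.09 and -0.13. Pdha1, the catalytic subunit of pyruvate dehydrogenase, was 0.16, 0.24 and -0.04, and its second probe gave -0.04, -0.14 and -0.09 and correlated with the first at only 0.242 across arrays, so the gene's direction in M and 0.5M is uncertain. Without the muscle arrays the first probe gave 0.08 in M and 0.10 in 0.5M. The kinases that switch pyruvate dehydrogenase off differed by 0.05, -0.01 and -0.06 (Pdk1) and by -0.14, -0.26 and 0.15 (Pdk2). Pdk2 (NM_030872) was 0.25, -0.49, 0.01 and 0.12 in C, 0.31, -0.23, -0.43 and -0.30 in M, -0.57, 0.06, -0.18 and -0.47 in 0.5M, and 0.29, -0.01, -0.05 and 0.25 in AhR. Its groups overlapped, and adjusted p against C were 0.801 to 1.00 (limma).

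Irs2 (NM_001168633), the insulin receptor substrate that prevails in liver, was -0.03, 0.02, -0.15 and 0.26 in C and -0.15, -0.12, -0.22 and -0.28 in AhR. The groups overlapped, with 2 of 4 AhR arrays below all of C. The difference was -0.22 ± 0.12 in AhR (limma, adjusted p = 1.00), -0.21 ± 0.12 in M (limma, adjusted p = 0.576) and -0.12 ± 0.12 in 0.5M (limma, adjusted p = 0.857), where it was -0.02 without the muscle arrays. It was the smallest unadjusted p of any glucose gene in AhR, at 0.0824 by limma, and the probe was well above background on 11 of 16 arrays.

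The exposed groups were also compared with each other, and no glucose gene passed. The background shares were 0.0152% of all transcripts for M against 0.5M, 0.266% for M against AhR and 0.0228% for 0.5M against AhR. M against AhR had the most genes at an unadjusted p under 0.05, with 1 of 31 higher in M and 6 lower, against 4.33% and 5.53% of all transcripts. In 0.5M against AhR 1 was higher and 3 lower (3.1% and 5.98% of all transcripts), and in M against 0.5M none was higher and 1 lower (3.89% and 2.86%). Of the 7 genes in M against AhR, Ugp2 was higher in M without overlap, by 0.28 ± 0.12 (limma, adjusted p = 0.439), and Eno1, Gapdh and Pklr were lower without overlap, against 1.75% and 2.25% of all transcripts in those directions. Eno1 was -0.06, -0.22, -0.13 and -0.12 in AhR, all above the 4 M arrays, and the difference was -0.34 ± 0.10 (limma, adjusted p = 0.233). Pklr differed by -0.47 ± 0.17 (limma, adjusted p = 0.344) and was lowest on the muscle array M 2, without which and 0.5M 4 it was -0.38. Gys2 was -0.59, -0.60, -0.32 and -0.06 in M and 0.11, -0.20, -0.27 and 0.32 in AhR, with overlap, and differed by -0.38 ± 0.13 (limma, adjusted p = 0.306).

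For 0.5M against AhR, Eno1 was -0.28, -0.30, -0.41 and -0.44 in 0.5M, below all AhR arrays, and differed by -0.23 ± 0.10 (limma, adjusted p = 0.512). It was 1 of 31 genes lower without overlap, against 3.1% of all transcripts, and none was higher without overlap, against 1.89%. Slc2a2 was -0.20, 0.14, -0.23 and -0.09 in 0.5M and 0.38, -0.04, 0.21 and 0.17 in AhR, and differed by -0.28 ± 0.12 (limma, adjusted p = 0.524). Between the doses of the mixture, Pgm1 was -0.17, -0.29, -0.43 and -0.35 in M and -0.11, -0.30, 0.04 and 0.01 in 0.5M, with a difference of -0.22 ± 0.09 (limma, adjusted p = 0.684). Ppp1r3b was 0.23, 0.10, 0.20 and 0.30 in M and 0.16, -0.15, 0.04 and 0.03 in 0.5M, with a difference of 0.18 ± 0.09 (limma, adjusted p = 0.730). Ugp2 was higher on every M array than on every 0.5M array, as 1 of 31 genes against 1.39% of all transcripts, by 0.24 ± 0.12 (limma, adjusted p = 0.733). For Ugp2, the level in 0.5M differed from C by 0.06 on slide 1 and 0.42 on slide 2. Over both slides it was off the midpoint of C and M by 0.0028 ± 0.10. No gene departed from that midpoint, with adjusted p of 0.903 to 0.998 (limma), where 0.00761% of all transcripts did.

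Relative to the reference, 25 of the 31 genes lay within 0.5 of 0 in C. The 5 below -0.5 were Pck1 at -1.54 ± 0.59 (SD, n = 4), Ugp2 at -1.44 ± 0.17, G6pc1 at -1.04 ± 0.90, Gbe1 at -0.98 ± 0.14 and Pklr at -0.93 ± 0.38. Ppp1r3c, at 0.50 ± 0.54, was the only one above 0.5. These ratios have no dye swap and are open to dye bias, which is the same in every group.

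The arrays with muscle transcripts carried the glycolytic and glycogen isozymes of muscle. Eno3, the muscle enolase, was 3.47 on M 2 and 3.92 on 0.5M 4, against -2.26 to -1.08 on the other 14 arrays. Pfkm, the muscle phosphofructokinase, was 2.28 and 2.54, against -0.32 to 0.11, and Pygm, the muscle phosphorylase, was 1.07 and 1.70, against -0.28 to 0.19; Eno3 and Pygm are themselves among the muscle markers. Of the 31 members, Pdha1, Gyg1 and Pfkfb1 were higher on both of these arrays than on any other, and Eno1 and Pck1 were lower on both. Some of this rests on near ties. Pfkfb1 was 0.082 on M 2 against 0.077 on the highest other array. Eno1 was -0.442 on 0.5M 4 against -0.441 on the lowest other array. Gapdh, Tpi1, Pgk1 and Ldha stayed within the range of the other arrays on both. With both arrays left out, no member passed in any comparison, and Ugp2 in M was 0.46 (limma, adjusted p = 0.178).

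**Figure D5:**
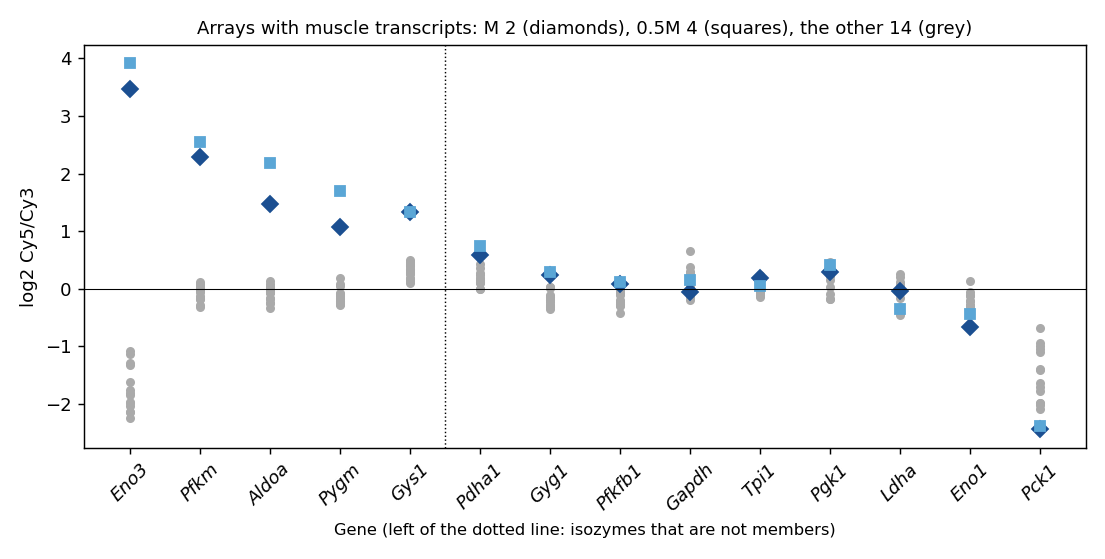
Log2 ratio of Cy5 to Cy3 (vertical axis) for 14 genes of glucose metabolism (horizontal axis) on M 2 (diamonds), 0.5M 4 (squares) and the other 14 arrays (grey points); genes left of the dotted line are isozymes that are not members. Eno3, Pfkm, Aldoa, Pygm and Gys1 stand far above the other arrays. Of the members shown, Pdha1, Gyg1 and Pfkfb1 lie above the range of the other arrays on both, and Eno1 and Pck1 lie below it. Pfkfb1 on M 2 and Eno1 on 0.5M 4 lie almost at its edge. Gapdh, Tpi1, Pgk1 and Ldha stay within it.

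Other genes of the same pathways, in 7 lists of 102 genes of which 82 were measured, gave no call against C either. In M, 2 were higher and 4 lower at an unadjusted p under 0.05, in 0.5M 1 and 3, and in AhR 1 and 1. Over all transcripts the shares were 4.53% and 5.61% in M, 2.60% and 3.92% in 0.5M, and 2% and 1.77% in AhR, so the counts of related genes lay near or below the background. Stbd1, which tethers glycogen to membranes, was -0.62, -0.42, -0.20 and -0.42 in C and -0.05, -0.21, -0.07 and 0.10 in M, where 3 of 4 arrays lay above all of C. Its difference was 0.36 ± 0.09 in M (limma, adjusted p = 0.112) and 0.25 ± 0.09 in 0.5M (limma, adjusted p = 0.657). In 0.5M all 4 arrays of Stbd1 lay above all of C, against 1.37% of all transcripts. Pc, the pyruvate carboxylase that feeds Pck1 and Pck2, differed by -0.38 ± 0.13 in M (limma, adjusted p = 0.270) and -0.29 ± 0.13 in 0.5M (limma, adjusted p = 0.748). Mpc1, a subunit of the mitochondrial pyruvate carrier, differed by -0.20 ± 0.08 in AhR (limma, adjusted p = 1.00). All 4 AhR arrays lay below C, against 1.02% of all transcripts. Of the 24 measured genes of glucose control, 1 lay below C without overlap in M and 2 in 0.5M. The shares of all transcripts were 2.07% and 1.66%. In M, Gpd1 (glycerol 3-phosphate dehydrogenase) was -0.24, Taldo1 (transaldolase) 0.19, Slc2a5 (a fructose carrier) 0.36, Mlx (partner of the carbohydrate-responsive factor) -0.18 and Dld (a pyruvate dehydrogenase subunit) -0.13, with adjusted p of 0.432 to 0.752 (limma). Among the remaining genes with the smallest p in their list, 0.5M gave 0.23 for Pdhb and -0.23 for Tkfc (a pyruvate dehydrogenase subunit and the triokinase of fructose use), and 0.14 for Shpk of the pentose phosphate pathway. AhR gave 0.20 for Gpd1, -0.15 for Phkb (a phosphorylase kinase subunit), -0.16 for the kinase Pdk4 and -0.12 for Rpe of the pentose phosphate pathway. In 0.5M, Trib1, a regulator of hepatic transcription factors, was -0.34, and Aldoa was 0.60, or 0.06 without the muscle arrays. In AhR, Cebpb, a liver transcription factor, was 0.37, with 0.05 on slide 1 and 0.70 on slide 2. Adjusted p were at least 0.683 for all of these genes in 0.5M and AhR (limma).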

How the data were processed

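The authors deposited, for 16 arrays, the median signal and local background of both channels as scanner intensity, written by Agilent Feature Extraction 10.7.3.1 per the file headers. The same files hold the scanner's own log ratio, deposited on the log10 scale, and quality marks of the spots (unit other: 0 or 1) per the file headers. The authors' deposited value table was found by comparison with the scan files to be Cy5 over Cy3 on the log2 scale with no background taken off (correlation with its own array 0.976 to 0.998), and how it was made is not given in the sources used here. It has 0 columns that could not be mapped.

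Signals were background-corrected (normexp, offset 50) and loess-normalized within arrays with limma 3.58.1 in R 4.3.3. A probe was kept if at least 50% of its Cy5 spots were well above background on 4 or more arrays, which left 14524 of 30367. The brightest probe stood for each gene, which gave 13146 transcripts, 8562 with a symbol. One limma model fitted group means and a slide term, and p-values were adjusted by Benjamini-Hochberg over all 13146 transcripts with a threshold of 0.05. The number of arrays, 4 per group, limits the precision: the median standard error of a difference was 0.10. The 4 arrays are pools of different pups, and p-values measure the spread between such pools. The plan named mean signals, but medians were deposited and used. The fit was tested on simulated data. Correlations used 100000 permutations over 16 arrays, or all orders over 8, two-sided. Of 6 relations, 2 are not reported here, and neither is 1 gene of the related lists.

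Members, roles and related lists were chosen with earlier results of these data known. Full statistics are given for the 4 members with the smallest p against C, the 2 in each comparison of exposed groups, the 4 with the largest residual SD, and from each of 7 related lists the gene with the smallest p. Promoter windows are from RefSeq, build GRCr8. Alternatives covered background, normalization, source of values, filters, slide, replicate block, probes per gene and left-out arrays. The Cy5-only correlations were added after seeing the data. Replicate numbers did not pair the arrays beyond the slide: 24 same-number pairs correlated at -0.408 to 0.192 after the slide term.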

Additional observations from a re-analysis of the deposited data

Results flagged for a closer look

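In 4 of 124 groups of 4 arrays (31 genes in 4 groups), 1 array lay far from the other 3 by Dixon's ratio (critical value 0.829), where chance flags about 1 group in 20. Pfkl, the liver phosphofructokinase, was 0.49 on C 4, and the nearest C array was at 0.19. Tpi1, triose phosphate isomerase, was -0.10 on C 3, and the nearest was at 0.11. Pklr, the liver pyruvate kinase, was -1.42 on M 2, and the nearest M array was at -1.03. Sord, sorbitol dehydrogenase, was 0.09 on M 2, and the nearest was at 0.29. M 2 was 1 of the 2 arrays with muscle transcripts, and its part in these values was not tested.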

How the results depend on the processing

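No glucose gene passed in 0.5M, AhR, the exposed comparisons, the 4-group test or the departure test under any of 29 alternatives, and in M against C the count was 0 in 28 and 1 without 0.5M replicate 1. Counts over all transcripts moved more. With median centring they were 1 in M against C and 0 in every other comparison, and the median over the members was -0.253 in M, -0.032 in AhR and -0.899 for liver over reference. With the scanner's ratio the counts were 20 in M against C, 19 in M against AhR, 0 in 0.5M against AhR and 15 for the 4-group test, and the member median in M was -0.110. With probes well above background on all 16 arrays, M against 0.5M gave 1. With the replicate block, M against 0.5M gave 7 and 0.5M against AhR 5, and no glucose gene was called; the numbers do not pair the arrays. Without the muscle arrays the departure test gave 2. Without the 5 arrays with muscle, pancreas or fat transcripts (C 2, 0.5M 4, M 1, M 2, AhR 2), M against 0.5M gave 4, M against AhR 19 and the 4-group test 15. Slide 1 alone gave 4 in M, 1 in 0.5M and 0 in AhR against C, 0 in each exposed comparison and in the departure test, 1 in the 4-group test, and a member median of 0.033 in M. Slide 2 alone gave 7 in M against C, 4 in M against 0.5M, 13 in M against AhR and 7 in the 4-group test, a member median of -0.030 in AhR, and an adjusted p of 0.124 (r = 0.809, permutation) for Pck1 with G6pc1; it has fewer arrays. Leaving out each array in turn (leave-one-out) gave 22 to 53 in M against C, 10 to 35 in M against AhR, 0 to 4 in 0.5M against AhR, 2 to 4 in M against 0.5M, 11 to 30 in the 4-group test, 1 to 2 in the departure test, 0 to 1 glucose gene in M against C, and a member median of -0.113 to -0.017 in M; the correlation of Pck1 with G6pc1 stayed at 0.771 to 0.883. The Cy5 signal alone, added after seeing the data, did not turn it. Cyp1a1 and Cyp2b2 kept their direction, but 4 of their 5 calls were lost under median centring and 3 on slide 1 alone. Of the named genes, Pck1, G6pc1, Ppp1r3c, Pdk2, Pklr (in AhR), Taldo1 and Phkb had the opposite sign under at least 1 alternative. Depth: 6 members were not well above background on every array (Gyg1 8, Ppp1r3b 9, Irs2 11, Pdk1 11, Gbe1 14 and Pfkl 15 of 16).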
